A study of Mus musculus with 4 samples.

Results

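The genes of fatty acid oxidation and the targets of the nuclear receptor PPAR alpha were examined in caecal tissue of mice. The set was a list of 33 genes, taken as the probe sets that carry a single gene symbol, with the probe set of the highest mean standing for its gene. A probe set was found for 31 of the 33 genes, among 22180 genes with such a probe set on the array. Acsl1 had none, and Cyp4a10 is named only on probe sets that also name another gene, so neither is counted below. The 31 genes comprised 20 mitochondrial genes, 3 peroxisomal genes and 8 regulators, PPAR alpha targets and genes of lipid handling.

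All mice were C57Bl/6, 21 weeks old and ate a diet low in n-3 fatty acids (D08041806, n-3 PUFA depleted). The groups were apoE KO mice given prebiotics (Orafti P95, given daily at 250 mg a mouse for the final 15 days), apoE KO mice not given them, WT mice given prebiotics and WT mice not given them. RNA of 6 mice per group was pooled and put on 1 Affymetrix array, so each group is 1 value and differences among its mice are hidden. For each of the 2 WT arrays the description gives the opposite diet to the title, source name and treatment fields. The WT arrays are named here by their titles, results that need their diet are given with and without them, and the KO labels do not conflict.

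Fatty acids enter mitochondria as carnitine esters and are shortened there by a repeating cycle of dehydrogenation, hydration, a further oxidation and thiolysis. Peroxisomes run a related cycle on very long-chain and dicarboxylic fatty acids. PPAR alpha is a fatty acid-activated receptor that pairs with RXR on direct repeats of a short core sequence and raises transcription of many of these enzymes. In the large intestine the epithelium burns fatty acids, above all butyrate produced by bacteria, and prebiotics are carbohydrates that those bacteria ferment.

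Upstream sequences are shown for the 5 genes that fell with prebiotics in the fit over both genotypes described below. They are the 250 bases before the gene start from the RefSeq promoter table (GRCm38.p6), written 5′ to 3′ on the strand of the gene, and 27 of the 33 genes had an entry. Hadha and Hadhb start back to back on chromosome 5, 273 bases apart, so the stretch before Hadhb lies between both starts and stands for both. Capitals mark matches to the letters AGGTCANAGGTCA with at most 2 mismatches, or to its core AGGTCA, on either strand.
Ehhadh chr16:21787835-21788084 (minus strand): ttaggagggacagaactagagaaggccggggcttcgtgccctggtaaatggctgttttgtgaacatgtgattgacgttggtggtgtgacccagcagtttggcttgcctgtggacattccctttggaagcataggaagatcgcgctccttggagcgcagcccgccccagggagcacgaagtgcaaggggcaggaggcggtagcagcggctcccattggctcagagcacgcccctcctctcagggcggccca
Pdk4 chr6:5496279-5496528 (minus strand): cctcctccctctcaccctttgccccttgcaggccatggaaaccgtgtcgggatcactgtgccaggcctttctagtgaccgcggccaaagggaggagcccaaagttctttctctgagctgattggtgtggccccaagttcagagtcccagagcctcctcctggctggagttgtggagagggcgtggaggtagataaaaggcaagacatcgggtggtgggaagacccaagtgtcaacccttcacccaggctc
Cd36 chr5:17835897-17836146 (minus strand): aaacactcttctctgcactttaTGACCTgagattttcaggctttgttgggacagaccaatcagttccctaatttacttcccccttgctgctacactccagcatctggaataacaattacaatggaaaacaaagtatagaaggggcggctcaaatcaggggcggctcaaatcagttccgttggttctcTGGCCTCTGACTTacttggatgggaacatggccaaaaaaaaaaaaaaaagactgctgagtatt
Acot1 chr12:84009252-84009501 (plus strand): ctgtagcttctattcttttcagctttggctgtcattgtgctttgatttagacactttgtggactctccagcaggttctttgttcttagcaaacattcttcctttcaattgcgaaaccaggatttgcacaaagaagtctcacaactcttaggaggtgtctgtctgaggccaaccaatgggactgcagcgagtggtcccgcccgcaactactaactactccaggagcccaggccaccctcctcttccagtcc
Hadhb chr5:30155003-30155252 (plus strand): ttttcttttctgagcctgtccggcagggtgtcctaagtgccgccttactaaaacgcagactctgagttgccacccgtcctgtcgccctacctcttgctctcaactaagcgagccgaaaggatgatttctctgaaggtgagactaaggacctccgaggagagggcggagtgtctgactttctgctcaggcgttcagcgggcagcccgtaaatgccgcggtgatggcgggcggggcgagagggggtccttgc

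The 13-letter repeat, searched on both strands, had a match in the upstream 250 bases of 4 of the 27 genes, and in 3.24% of 32851 RefSeq promoters. The core had an exact match in 6 of the 27 genes and in 14.0% of all promoters, and a core match can be part of a repeat match. Among the 5 sequences above, matches were found before Cd36 only. The 4 repeat matches are shown in the direction of the motif, with letters equal to the motif in capitals.
Cd36 chr5:17835947-17835959: AaGTCAgAGGcCA
Plin2 chr4:86670272-86670284: AGGTCAggGGTCc
Echs1 chr7:140116492-140116504: AGGTCAcgGGTCc
Etfa chr9:55512308-55512320: AGGgCAaAGGTaA
A match is a description of these letters and not a binding site. The Cd36 match lay 63 to 51 bases before the gene start and differed from the motif at 2 letters, as the other 3 matches did.

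Epithelial markers were present on all arrays, with 10 of 10 at or above the array median (taken over probe sets naming 1 gene) on each of the 4. Of the 5 markers of caecum and colon that were found, 4 reached that median on every array, and Hoxb13 stayed below it on all 4. Apoe had log2 values of 3.13 and 2.83 on the KO arrays with and without prebiotics, against 4.09 and 3.90 on the corresponding WT arrays, which follows the genotype labels. Across probe sets, pairs of arrays correlated at a Pearson's r of 0.984 to 0.988. In tissue of this kind fewer cells of a type and less RNA per cell cannot be told apart.

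With prebiotics, and by the WT titles, 21 of the 31 genes were lower in both pairs of arrays, against 25.1% of 13083 genes tested. Only Acads, Fabp2 and Acsl5 were higher in both pairs, against 34.1% of all genes, and 7 genes had opposite signs. In limma on all 4 arrays, taking the WT titles, 5 of the 31 genes fell (Pdk4, Ehhadh, Cd36, Acot1 and Hadha) and 0 rose, where 0.26% of all genes tested were called lower and 0.994% higher. A called gene has a Benjamini-Hochberg adjusted p under 0.05 over all 13083 genes. The fit has 1 residual degree of freedom, which is the difference between the KO and WT steps. At an unadjusted p under 0.05, limma placed 18 of the 31 genes lower, against 4.62% of all genes, and 2 higher, Acads and Acsl5, against 9.13%. The median log2 difference was -0.26 over the 31 genes and 0.02 over all genes. The list was chosen with earlier results of these data known. Its counts beside the shares of all genes are therefore a description and not a test.

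**Figure D1:**
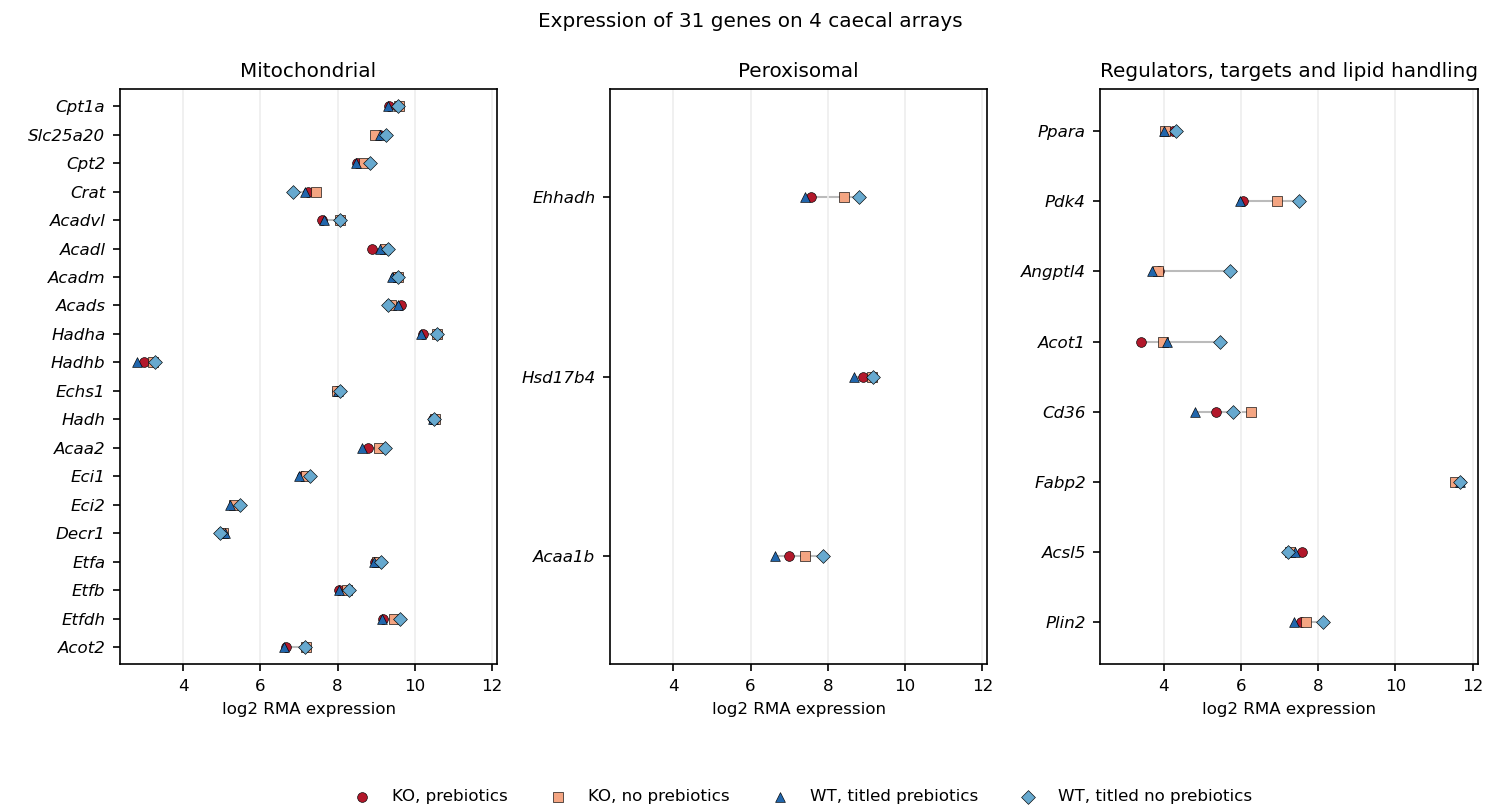
Log2 RMA expression (horizontal axis) of the 31 genes on each of the 4 arrays, 1 symbol per array, in 3 panels; the grey line spans the 4 values of a gene. Ehhadh, Pdk4 and Acaa1b have both prebiotic symbols left of both symbols without prebiotics, while Angptl4 and Acot1 have the WT array titled without prebiotics far to the right of the other 3.

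In the plot of expression by array, 30 of the 31 genes had 0 arrays below the array median. Hadhb had 2. On each array the mean over the 31 genes was 7.54 (KO) and 7.47 (WT) with prebiotics, against 7.75 (KO) and 7.93 (WT) without. Over all genes tested these means were 4.83 and 4.81 with prebiotics, against 4.79 and 4.79 without. For 22 of the 31 genes the highest value was on the WT array titled without prebiotics, as it was for 23.3% of all genes. The WT array titled with prebiotics held the lowest value for 20 of them, where the share over all genes was 23.5%.

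Most mitochondrial genes were slightly lower with prebiotics in both pairs. Of the 20, 14 had both prebiotic arrays below both arrays without, against 17.4% of all genes, and 1 (Acads) had them above, against 25.5%. The median log2 difference was -0.19 in the KO pair and -0.24 in the WT pair, and 1 gene, Hadha, passed the test over both genotypes. In what follows a pair of values is given for KO first and WT second.

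Carnitine carries long-chain fatty acids across the inner mitochondrial membrane. Cpt1a, which makes the carnitine ester and sets the rate of entry, had log2 values of 9.33 and 9.32 on the prebiotic arrays against 9.59 and 9.55 without. Cpt2, which turns the ester back into acyl-CoA, had 8.51 and 8.48 against 8.67 and 8.85. Both were lower on the prebiotic arrays in each pair, as 25.1% of all genes were. The steps were small and limma did not call them (adjusted p = 0.143 and 0.22). The carrier Slc25a20 differed by 0.12 in the KO pair and -0.16 in the WT pair. Crat, which esterifies short-chain acyl groups, went opposite ways, with -0.21 in KO and 0.32 in WT.

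Acyl-CoA dehydrogenases differ in the chain length they accept. Acadvl, the very long-chain enzyme, had 7.60 and 7.65 on the prebiotic arrays against 8.06 and 8.06 without (log2 difference -0.43, SE 0.10, limma adjusted p = 0.068). Acadl, the long-chain enzyme, had 8.89 and 9.10 against 9.22 and 9.31. Acadm, the medium-chain enzyme, had 9.48 and 9.40 against 9.56 and 9.57. For these 3 genes both prebiotic arrays lay below both arrays without, as for 17.4% of all genes, and none was called. Acads, the short-chain enzyme that acts on butyryl-CoA, stood the other way, with 9.63 and 9.57 on the prebiotic arrays against 9.39 and 9.29 without (log2 difference 0.26, SE 0.07, limma adjusted p = 0.133).

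The mitochondrial trifunctional protein, which runs the later steps on long chains, is made of the products of Hadha and Hadhb. Hadha had 10.20 and 10.14 on the prebiotic arrays against 10.57 and 10.57 without. The prebiotic arrays lay below the others with little spread inside each diet, and Hadha fell by 0.39 on the log2 scale (SE 0.06, limma adjusted p = 0.0148), or 1.31-fold. Without the trend in eBayes the adjusted p was 0.267. Hadhb had 2.98 and 2.81 against 3.23 and 3.27, values near the array median at which the size of a difference is not well determined (limma adjusted p = 0.28).

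The soluble enzymes for shorter chains did not share one pattern. Acaa2, the thiolase, had 8.77 and 8.63 on the prebiotic arrays against 9.06 and 9.23 without, a step of -0.44 on the log2 scale (SE 0.09, limma adjusted p = 0.0589). Its adjusted p lay between 0.0319 and 0.262 over 5 alternatives, and 2 of them called it. Hadh, the short-chain hydroxyacyl-CoA dehydrogenase, had 10.47 and 10.46 against 10.52 and 10.50. Echs1, the short-chain hydratase, differed by less than 0.01 in KO and by -0.06 in WT. For either gene the log2 difference between diets was smaller than its SE.

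Auxiliary enzymes handle double bonds of unsaturated chains. Eci1 had 7.08 and 7.01 on the prebiotic arrays against 7.17 and 7.29 without, so the diets did not overlap, at an adjusted p of 0.523 in limma. Eci2, whose product is found in mitochondria and peroxisomes, differed by 0.12 in KO and -0.26 in WT. Decr1, the dienoyl-CoA reductase, differed by less than 0.01 in KO and by 0.13 in WT.

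Electrons from the dehydrogenases pass through the flavoprotein Etfa-Etfb to Etfdh, which feeds the respiratory chain. Etfdh had 9.18 and 9.14 on the prebiotic arrays against 9.45 and 9.62 without (log2 difference -0.37, SE 0.08, limma adjusted p = 0.0611). Etfb had 8.03 and 8.04 against 8.25 and 8.29, and Etfa 8.96 and 8.95 against 9.01 and 9.12. All 3 genes were lower on both prebiotic arrays than on both arrays without, as 17.4% of all genes were, and none was called. Over 5 alternatives Etfdh was called in 1, cyclic loess, with an adjusted p of 0.0346.

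Acot2, a mitochondrial matrix thioesterase that releases fatty acids from acyl-CoA and is induced through PPAR alpha, had 6.65 and 6.60 on the prebiotic arrays against 7.18 and 7.17 without. The genotypes were close to each other within each diet, and the diets did not overlap. Its log2 difference of -0.55 (SE 0.11) stood just outside the threshold, at a limma adjusted p of 0.0517, and 3 of 5 alternatives called it.

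By the WT titles all 3 peroxisomal genes were lower on the prebiotic arrays in both pairs, as 25.1% of all genes were. Ehhadh, the bifunctional hydratase and dehydrogenase that is a classical PPAR alpha target, had 7.57 and 7.41 with prebiotics against 8.42 and 8.80 without. The diets did not overlap, and Ehhadh fell by 1.12 on the log2 scale (SE 0.13, limma adjusted p = 0.005), or 2.17-fold. In the KO pair it was 1.80-fold lower and in the WT pair 2.61-fold lower. The adjusted p ranged from 0.00123 to 0.0623 over 5 alternatives, and the call was lost without the trend in eBayes.

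Acaa1b, the peroxisomal thiolase that PPAR alpha agonists induce in rodent liver, had 6.98 and 6.62 on the prebiotic arrays against 7.40 and 7.87 without. The gap was wider in WT (2.38-fold) than in KO (1.33-fold), and the log2 difference of -0.83 (SE 0.17) was not called in limma (adjusted p = 0.0578). Its close copy Acaa1a has a probe set of its own, with 4.28 and 3.97 on the prebiotic arrays against 4.32 and 4.44 without. That probe set differed by -0.04 in KO and -0.47 in WT, and how far either probe set reads the other transcript was not tested. Hsd17b4, the multifunctional enzyme for branched and very long chains, had 8.91 and 8.69 against 9.14 and 9.16, a step of -0.35 on the log2 scale (SE 0.09, limma adjusted p = 0.0964). It too had both prebiotic arrays below both arrays without.

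Among the 8 regulators, targets and lipid handling genes the differences were larger and less uniform. In the WT pair 5 of the 8 were at least 1.5-fold lower on the array titled with prebiotics, where 1.11% of all genes were, and in the KO pair 2 were on the prebiotic array, where 1.15% of all genes were. In the KO pair 4 of the 8 were lower and 4 higher. The receptor itself, Ppara, had 4.24 and 4.02 on the prebiotic arrays against 4.05 and 4.31 without. The diets overlapped, the pairs had opposite signs, and the log2 difference was -0.05 (SE 0.16, limma adjusted p = 0.938).

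Pdk4 phosphorylates pyruvate dehydrogenase and thereby spares glucose when fatty acids are used. It had 6.05 and 5.97 on the prebiotic arrays against 6.94 and 7.51 without. The prebiotic values were close to each other and both lay below the others. Pdk4 fell by 1.21 on the log2 scale (SE 0.16, limma adjusted p = 0.00796), or 2.31-fold, with 1.85-fold in KO and 2.90-fold in WT. Its adjusted p lay between 0.0025 and 0.0623 over 5 alternatives, and only the fit without the trend in eBayes did not call it.

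Cd36, a membrane protein that takes up long-chain fatty acids, differed by nearly the same step in both genotypes. It had 5.35 and 4.82 on the prebiotic arrays against 6.28 and 5.80 without, so the prebiotic array was lower by 0.93 in KO and by 0.98 in WT, and the diets did not overlap. Cd36 fell by 0.95 on the log2 scale (SE 0.13, limma adjusted p = 0.00892) and was called in 5 of 5 alternatives that keep the titles, at an adjusted p of 0.0435 without the trend.

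Acot1, the cytosolic thioesterase next to Acot2 on chromosome 12, had 3.41 and 4.08 on the prebiotic arrays against 3.99 and 5.47 without. The KO value without prebiotics lay below the WT value titled with them, so the diets overlapped although each pair had the same sign. Acot1 fell by 0.99 on the log2 scale (SE 0.19, limma adjusted p = 0.0471), and 2 of 5 alternatives called it. Acot1 and Acot2 are close copies, so the transcript behind each probe set is uncertain.

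Angptl4, a secreted inhibitor of lipoprotein lipase, rested on 1 array. It had 3.87 and 3.71 on the prebiotic arrays and 3.86 on the KO array without, while the WT array titled without prebiotics had 5.73. The difference was 0.01 in the KO pair and -2.02 in the WT pair, and limma did not call it (adjusted p = 0.247). Plin2, which coats lipid droplets, had 7.57 and 7.37 on the prebiotic arrays against 7.69 and 8.13 without, a step of -0.44 on the log2 scale (SE 0.14, limma adjusted p = 0.198).

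The remaining lipid handling genes stood level or slightly higher. Fabp2, the intestinal fatty acid-binding protein, had 11.66 and 11.68 on the prebiotic arrays against 11.53 and 11.66 without. Acsl5, which activates fatty acids to acyl-CoA and is abundant in the intestinal epithelium, had 7.60 and 7.40 against 7.27 and 7.23. The values of Acsl5 did not overlap between diets, and its log2 difference of 0.25 (SE 0.11) was not called (limma adjusted p = 0.345).

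The KO pair carries no conflict of labels and can be read by itself, as 1 array against 1 array without a test. There 23 of 31 genes were lower with prebiotics, against 43.9% of 12216 genes, and the median log2 difference was -0.21 against 0.04 over all genes. Cd36 (1.90-fold), Pdk4 (1.85-fold) and Ehhadh (1.80-fold) were at least 1.5-fold lower, where 1.15% of all genes were, and Acot1 stood just short of that limit. No gene of the 31 was 1.5-fold higher, where 2.63% of all genes were. At 2-fold the count was 0 lower, where 0.139% of all genes were.

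The WT pair, read by title, had 26 of 31 genes lower on the array titled with prebiotics, against 47.0% of 12223 genes, with a median of -0.29 against 0.02. Angptl4 (4.06-fold), Pdk4, Acot1, Ehhadh, Acaa1b, Cd36, Plin2 (1.70-fold) and Acaa2 (1.51-fold) were at least 1.5-fold lower, where 1.11% of all genes were. The first 5 of these were at least 2-fold lower, where 0.18% of all genes were, and 0 were 2-fold higher, where 0.335% were. No gene of the 31 was 1.5-fold higher, where 2.07% of all genes were. The absolute difference was larger in the WT pair than in the KO pair for 25 of the 31 genes, and with 1 array per group this was not tested.

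**Figure D2:**
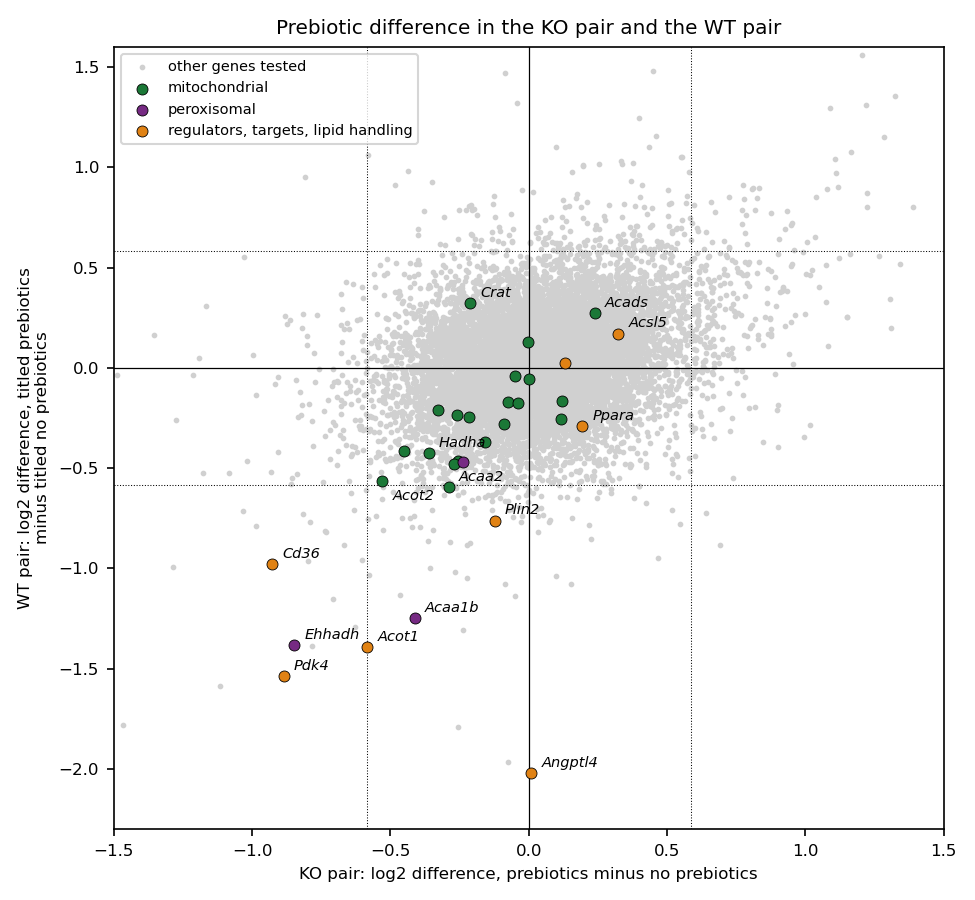
Log2 difference between arrays with and without prebiotics in the KO pair (horizontal axis) and in the WT pair by title (vertical axis), 1 point per gene; dotted lines mark 1.5-fold, grey points are the other genes tested, and the axes leave out genes beyond their limits. Pdk4, Ehhadh, Cd36, Acot1 and Acaa1b lie in the lower left, Angptl4 lies on the vertical zero line at -2.02, and Acads and Acsl5 lie in the upper right.

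If the WT arrays carry the diets of their descriptions instead, the vertical axis of the plot of both pairs turns over. The 21 genes that were lower in both pairs by title then have opposite signs in the pairs. The fit over both genotypes then called 0 of the 31 genes in limma, also 0 of all genes, and 0 of the 31 had an unadjusted p under 0.05, against 0.673% of all genes lower and 0.627% higher. The median over the 31 genes was then 0.08, Pdk4 had 0.32, Ehhadh 0.27, Acot1 0.40, Cd36 0.03 and Hadha 0.03. Which set of labels is right was not tested, so the 5 calls rest on the titles, and the KO pair is the part of the result that does not.

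Genotype made no difference that passed the test. Over both diets limma called 0 of the 31 genes and 0 of all genes, and at an unadjusted p under 0.05 it gave 1 of the 31, Acot1, where 1.37% of all genes were lower and 1.92% higher. Acot1 had 3.41 and 3.99 on the KO arrays with and without prebiotics, against 4.08 and 5.47 on the WT arrays. The 2 genotypes did not overlap, with KO lower, as for 3 of the 31 genes and 14.0% of all genes, and the log2 difference of -1.08 (SE 0.42) had an adjusted p of 0.999 in limma. It was -0.38 once the WT array titled as untreated was left out. Both KO arrays lay above both WT arrays for 1 gene, Crat, with 7.23 and 7.44 against 7.16 and 6.84, where 16.2% of all genes did.

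Within the titled diets the genotype differences leaned opposite ways, as the plot of differences by diet and by genotype shows. With prebiotics 23 of 31 genes were higher in KO, against 53.4% of all genes, with a median log2 difference of 0.06; 1, Acot1, was 1.5-fold lower, where 0.688% of all genes were, and 0 were 1.5-fold higher, where 1.15% were. Without prebiotics 23 of 31 were lower in KO, against 49.0% of all genes, with a median of -0.09; 2, Angptl4 and Acot1, were 1.5-fold lower, where 1.01% of all genes were, and 1, Crat, was higher, where 1.22% were. Angptl4 had 0.16 with prebiotics and -1.87 without, Pdk4 0.08 and -0.57, Acaa1b 0.36 and -0.47, and Plin2 0.20 and -0.44. Cd36 kept its sign, at 0.53 with prebiotics and 0.48 without, and did not pass the test over both diets (SE 0.38, limma adjusted p = 0.999). Without 1 array the Cd36 difference lay between 0.01 when the WT array titled with prebiotics was left out and 0.99 when the other WT array was. These comparisons share arrays with the prebiotic pairs and depend on the titles in the same way.

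**Figure D3:**
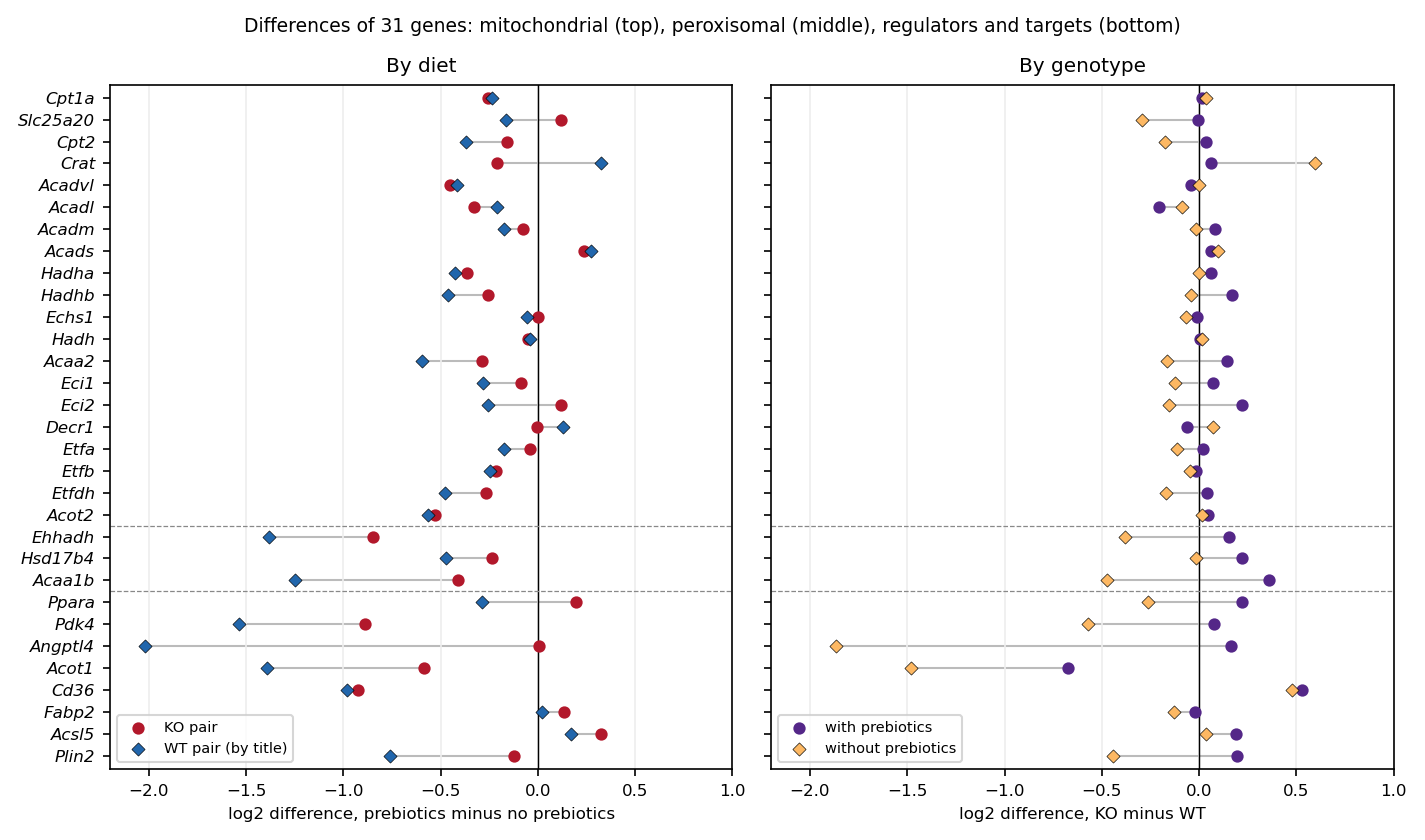
Log2 differences of the 31 genes (rows) by diet within genotype (left) and by genotype within titled diet (right), 2 points per gene joined by a grey line. On the left most points lie below 0 in both pairs, and on the right the points with prebiotics lie mostly above 0 and those without mostly below 0, except for genes such as Cd36 and Acot1.

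Other genes of the same pathways were read from 3 lists. Of 20 further genes of mitochondrial oxidation and ketone metabolism, 0 were called in limma over both genotypes (median log2 difference 0.03), with Pcca, a subunit of propionyl-CoA carboxylase, at 0.40, Oxct1, which uses ketone bodies, at -0.38, and Acad11, an acyl-CoA dehydrogenase, at 0.36. Of 17 further peroxisomal genes, 1 fell and 0 rose (median -0.16), where 0.26% of all genes were called lower and 0.994% higher. Of the 17, 13 had a log2 difference below 0, against 44.9% of all genes. In the WT pair 15 of 17 were lower on the array titled with prebiotics (median -0.19), against 47.0% of all genes. In the KO pair 9 of 15 were lower on the prebiotic array (median -0.04), against 43.9% of all genes. The called gene was catalase (Cat), which removes the hydrogen peroxide made by peroxisomal oxidation. It had 9.92 and 9.83 on the prebiotic arrays against 10.41 and 10.45 without, without overlap, and fell by 0.55 on the log2 scale (limma adjusted p = 0.00504, and 0.17 without the trend in eBayes). Pex11a, a peroxisome proliferation factor, had -0.41 and Acox2 -0.34, and neither was called.

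Of 24 further PPAR receptors and targets, 1 fell and 0 rose (median -0.04), where 0.26% of all genes were called lower and 0.994% higher. Vnn1, a pantetheinase and PPAR alpha target, had 6.21 and 6.60 on the prebiotic arrays against 7.07 and 7.18 without, and fell by 0.72 on the log2 scale (limma adjusted p = 0.0248, and called in 3 of 5 alternatives). The fatty acid transporter Slc27a4 had 0.44 (limma adjusted p = 0.0958) and Cyp4b1 -0.35, with 0.07 in KO and -0.77 in WT. Both calls rest on the titles: with the WT pair exchanged Cat had 0.06 and Vnn1 -0.14, neither called.

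**Figure D4:**
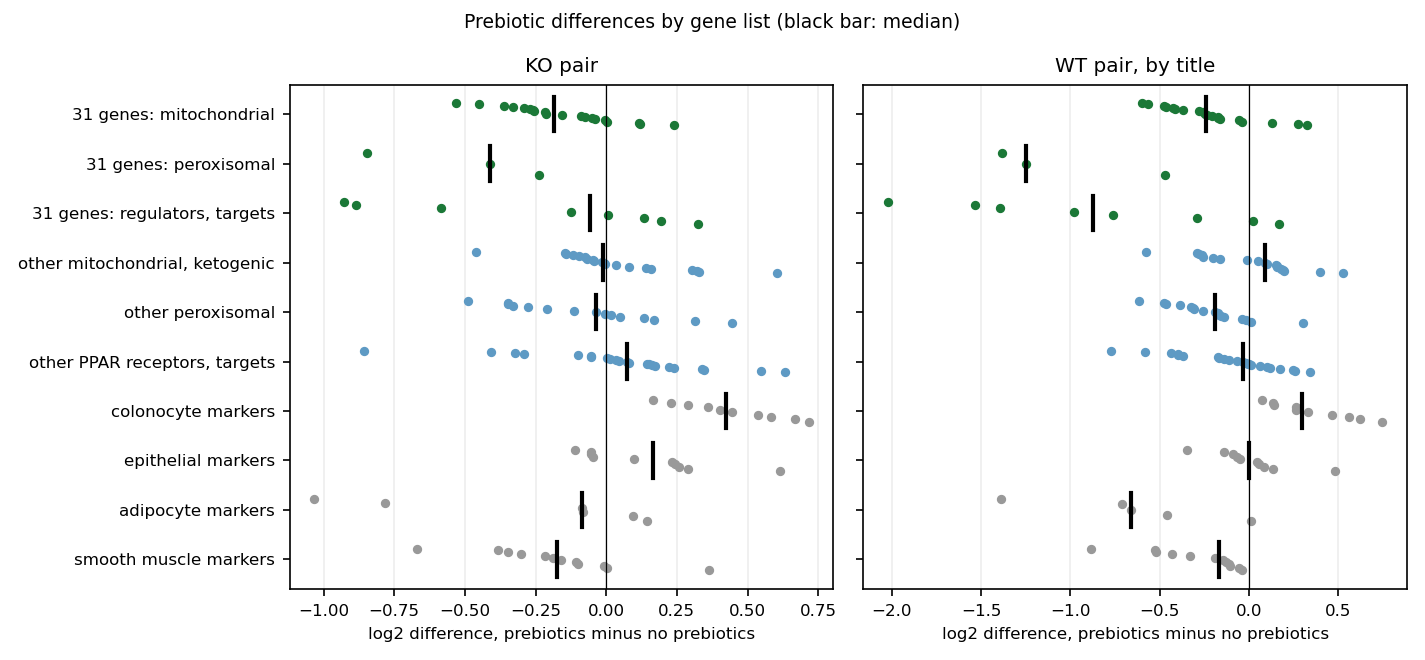
Log2 difference between arrays with and without prebiotics (horizontal axis) for single genes (points) by list, in the KO pair (left) and the WT pair by title (right); black bars are medians. The mitochondrial and peroxisomal groups of the 31 genes lie mostly below 0 in both pairs. Of the 8 regulators, targets and lipid handling genes, 4 lie on each side of 0 in the KO pair. In the WT pair 6 of the 8 lie below it. Of the further peroxisomal genes, 15 of 17 lie below 0 in the WT pair, where 47.0% of all genes do. In the KO pair 9 of 15 do, where 43.9% of all genes do. Colonocyte markers lie above 0, and Fabp4 and Lpl give the low points of the adipocyte markers.

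Markers of other cells moved with diet beside these genes, as the plot by gene list shows. Of 9 adipocyte markers 8 were found, and Adipoq and Lep, which define the type, were below the median of the array on all 4 arrays. The linear signal summed over the 8 markers was 222 (KO) and 227 (WT) with prebiotics, against 337 and 409 without. In both genotypes most of the gap between these sums came from 2 of the markers, Fabp4 and Lpl. The markers did not all go 1 way. Of the 6 tested over both genotypes, 4 were lower, against 44.9% of all genes, and 2 were higher, up to 0.13 for Plin1. Fabp4, a fatty acid-binding protein of adipocytes, macrophages and endothelium, had 5.94 and 6.12 against 6.73 and 7.50, and lipoprotein lipase (Lpl) 6.03 and 6.11 against 7.06 and 6.82. Both fell in limma over both genotypes (-1.09 and -0.87, adjusted p = 0.0114 and 0.0139), as did Cd36, which such cells also express. The 12 smooth muscle markers summed to 5069 (KO) and 3945 (WT) with prebiotics, against 5686 and 4737 without. Over both genotypes 11 of the 12 were lower, against 44.9% of all genes, and Des was higher (0.09). Synpo2 (-0.78), Myl9 (-0.45) and Myh11 (-0.41) were called lower (limma adjusted p = 0.0275, 0.0467 and 0.0354), each in 3 of 5 alternatives. These calls and those of Fabp4 and Lpl rest on the titles, as 0 of all genes were called with the WT pair exchanged. The 10 colonocyte markers went the other way, with sums of 22103 and 21071 against 17657 and 17338. All 10 were higher in both pairs, against 34.1% of all genes. In limma over both genotypes 6 of the 10 were called higher, where 0.994% of all genes were. Slc26a3 was among them (0.58, limma adjusted p = 0.000808), and 4 of 5 alternatives called it. These calls rest on the titles as well. Small intestinal markers (11 found) summed to 1842 and 1749 with prebiotics, against 1117 and 1169 without. Of the 10 tested over both genotypes, 2 were lower, against 44.9% of all genes. By the titles 2 of the 10 were called higher in limma, where 0.994% of all genes were. Sums for 12 macrophage markers were 387 and 382 against 394 and 302, for 7 B cell markers 49.9 and 90.6 against 80.1 and 88.4, for 12 endothelial markers 249 and 270 against 315 and 265, and for 12 fibroblast markers 1760 and 1334 against 1608 and 1080. The part of these shifts in the values of the 31 genes was not tested.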

How the data were processed

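Caecal RNA, pooled from 6 mice per group, was measured on 1 Affymetrix array for each of 4 groups. The deposited values are log2 expression per probe set, made with Affymetrix Expression Console and RMA per the submitters' processing notes. Versions, settings and a genome build were not given in the sources used here, and the log base was taken from RMA. Of 41345 probe sets, 23521 carried 1 gene symbol, 1814 several and 16010 none in the platform annotation. Gene identifiers were looked up in RefSeq (GRCm38.p6), which held 99.2% and changed 0 symbols.

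Tested genes were those at or above the array median (over probe sets naming 1 gene) on any array compared, which left 13083 genes over the 4 arrays and 31 of the 31 genes found. The prebiotic fit used genotype and prebiotic as terms, and the genotype fit set 2 KO arrays against 2 WT arrays, in limma 3.58.1 (R 4.3.3, lmFit, eBayes with trend, two-sided, Benjamini-Hochberg over all genes). In the prebiotic fit the 1 residual degree of freedom is the difference between the KO and WT steps. In the genotype fit the residual is the difference between the arrays of a genotype, which also differ in diet. In both fits eBayes moderates it with variance estimated over all genes. The p-values therefore do not measure the spread among the mice of a group. Pairs of single arrays were described at 1.5-fold and 2-fold without a test. Both fits were run on simulated data with known changes and noise of the same size for every gene. That run checks the code and does not bear on the calls. The genes and lists were chosen with earlier results of these data known. By the rule for named genes, values on every array were given for genes called in either fit or past 1.5-fold in a pair, for Ppara and for the gene of the highest mean in each role; those of the other genes were added after they were seen. Of other pathway genes, those called and the 3 largest per list were named, and up to 3 genes per marker list beside defining markers below the median. Alternatives covered the filter, the probe set rule, normalization, the eBayes trend, the WT labels and single arrays. The number of arrays limits the precision.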

Additional observations from a re-analysis of the deposited data

How the results depend on the processing

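The labels carry no replicate numbers to pair arrays by. With 1 array per genotype and diet, the genotype term of the prebiotic fit pairs the arrays by genotype. Diet was a block in an alternative genotype fit. The settings tried were dropping the filter, raising it to the 75th percentile, averaging probe sets, cyclic loess, eBayes without trend, the WT pair exchanged, diet as a block for genotype, and leaving out each array. Of the 31 genes, 5 were called lower with prebiotics; the count was 8 with the mean over probe sets, 10 with cyclic loess, 1 (Cd36) without the trend and 0 with the WT pair exchanged. With 1 array left out the prebiotic fit has no residual degrees of freedom, so its calls could not be recomputed. Its estimate is then the difference of the pair left whole. The median over the 31 genes was therefore that of the WT pair (-0.29) or of the KO pair (-0.21) given above. At 2-fold, a limit added after seeing the data, 0 genes were lower in the KO pair and 5 in the WT pair. Genotype calls among the 31 stayed at 0 under every alternative run, diet as a block included.

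With the WT pair exchanged, the 8 genes 1.5-fold lower in the WT pair became 0 lower and 8 higher, its median became 0.29, and the median of the prebiotic fit became 0.0769. Under that exchange these log2 differences of the prebiotic fit changed sign: Slc25a20 0.14, Cpt2 0.11, Crat -0.27, Acadm 0.0492, Acads -0.0172, Hadha 0.0309, Hadhb 0.10, Echs1 0.0286, Acaa2 0.15, Eci1 0.0967, Eci2 0.19, Decr1 -0.0664, Etfa 0.0677, Etfb 0.0157, Etfdh 0.10, Acot2 0.017, Ehhadh 0.27, Hsd17b4 0.12, Acaa1b 0.42, Ppara 0.24, Pdk4 0.32, Angptl4 1.01, Acot1 0.40, Cd36 0.0264 and Plin2 0.32. So did those of Acad11 (-0.0362), Cat (0.0635), Pex11a (0.0644), Cyp4b1 (0.42), Ceacam20 (-0.0824), Slc26a3 (-0.0428), Fabp4 (0.30), Cidec (0.29), Synpo2 (0.11), Myl9 (0.0684) and Myh11 (0.11). The exchange turns the sign of the WT pair by construction. With an array left out, the genotype difference of Pdk4 lay between -1.02 and 0.52 and that of Angptl4 between -1.86 and 0.16, both turning sign when the WT array titled without prebiotics was left out, and Pdk4 also without the KO prebiotic array (0.20). Values near the array median, such as those of Hadhb, limit the sizes given.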

Other observations

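Cyp4a10, a cytochrome of fatty acid omega oxidation and a PPAR alpha target in mouse, is named on 2 probe sets that each name a second gene of its family. The probe set shared with Cyp4a31 had log2 values of 2.68 on the KO array and 2.88 on the WT array with prebiotics, against 3.49 and 3.60 without. Its differences were -0.81 in KO and -0.72 in WT, from values that cross the array median. The probe set shared with Cyp4a32 had 2.39 and 2.63 with prebiotics, against 2.84 and 2.51 without, and lay below the array median on all 4 arrays. A further probe set of Crat had 3.16 and 3.29 with prebiotics against 3.10 and 3.10 without, and did not share the genotype difference of the probe set used.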
